A study of Vitis vinifera with 2 samples.

Results

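The siRNA clusters of grapevine chromosome 6 are the subject here, in proliferating embryogenic callus (EC) and in young leaf tissue of Vitis vinifera cv. 'Chardonnay'. Every cluster listed on chromosome 6 of the PN40024 12X assembly was taken. This gave 8146 of 227847 clusters in EC and 4832 of 89597 clusters in leaf. EC is a culture of undifferentiated cells that can form embryos. It was started from anthers, and callus of several Petri dishes was pooled before RNA extraction, as were several young leaves, taken from the vines that had given the anthers, for the leaf sample. The callus had been grown on solid medium in the dark for some months. Small RNA between 18 and 35 nt was sequenced from 1 library per tissue. A cluster is a stretch of the genome to which siRNAs mapped close together. Its DicerCall is the fragment length, between 20 and 24 nt, that predominated among its reads, or N where no such length was called. Chromosome 6 was selected on its EC/leaf ratio of cluster numbers, which earlier counts over the same lists had put below those of the other chromosomes. That ratio, and the window ratios behind it, are therefore given as a description and not as a test. The same holds for the EC and leaf counts that form these ratios.

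In plants, most siRNAs of 24 nt arise from transcripts of RNA polymerase IV that are copied into double strands by an RNA-dependent RNA polymerase and cut by a Dicer-like enzyme. Loaded into ARGONAUTE proteins, they direct DNA methylation to transposons and repeats (canonical RNA-directed DNA methylation). siRNAs of 21 and 22 nt are cut by other Dicer-like enzymes, often from transcripts of RNA polymerase II. They guide the cleavage of messenger and transposon RNA, and they can also feed a non-canonical route to DNA methylation. A cluster called 24 nt is thus the usual footprint of the first route and a cluster called 21 nt that of the second. The lists gave no reads per cluster and no genes or repeats, so that neither the strength of a cluster nor the element beneath it was known.

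Chromosome 6 carried few clusters in EC and many in leaf for its length. It makes up 5.05% of the length of the 19 chromosomes, and it held 4.01% of the EC clusters on them (95% interval 3.92 to 4.10%) and 5.95% of the leaf clusters (5.79 to 6.12%). EC had 378.8 clusters per Mb, the lowest density of the 19 chromosomes, with the other 18 between 400.4 and 606.1 per Mb. Leaf had 224.7 clusters per Mb, the highest of the 19, with the others between 160.5 and 218.6 per Mb. The resulting EC/leaf ratio was 1.69 (1.63 to 1.75) on chromosome 6 and 2.55 (2.53 to 2.58) on the other 18 chromosomes together, of which chromosome 8 came nearest with 2.04. The intervals of shares are exact binomial (Clopper-Pearson), and those of ratios were derived from the binomial interval of the EC fraction. Both cover the counting of clusters alone, and with 1 library per tissue no difference between EC and leaf had a replicate check or could be tested. The study lists more mapped reads, after filtering, for the EC library than for the leaf library, and cluster numbers were not corrected for this difference in depth.

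**Figure D1:**
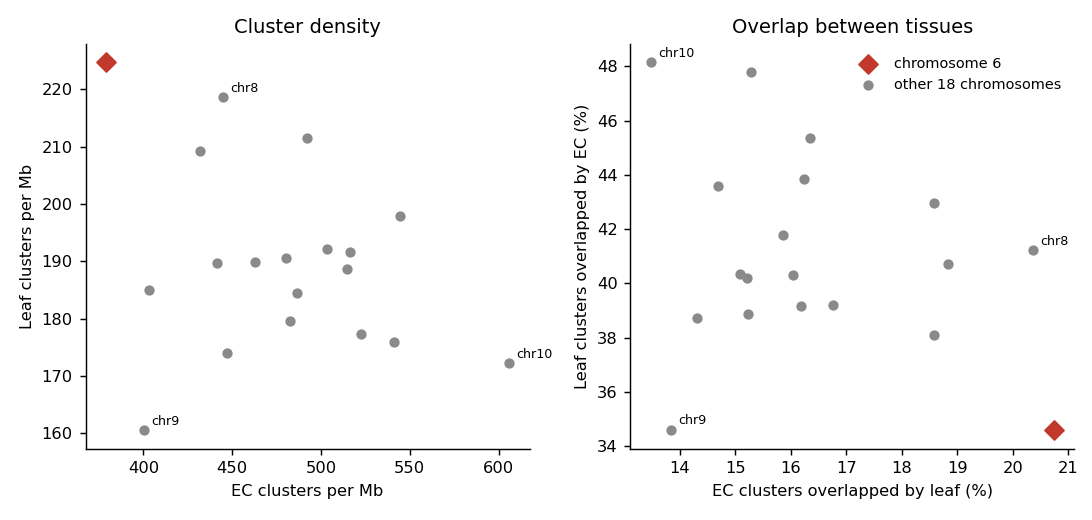
Left, leaf clusters per Mb (vertical) against EC clusters per Mb (horizontal); right, the percent of leaf clusters overlapped by an EC cluster (vertical) against the percent of EC clusters overlapped by a leaf cluster (horizontal), with 1 point per chromosome and axes that do not start at 0. Chromosome 6 (diamond) has 378.8 EC clusters and 224.7 leaf clusters per Mb, the lowest and the highest of the 19 chromosomes, and overlaps of 20.7% in EC and 34.6% in leaf, the highest and the lowest of the 19, the lowest shared with chromosome 9 after rounding.

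The 24 nt class made up most of the clusters in both tissues. There were 6104 clusters of 24 nt in EC and 2980 in leaf, a ratio of 2.05 (1.96 to 2.14), against 3.30 on the other 18 chromosomes together. This was the lowest 24 nt ratio of the 19 chromosomes, with chromosome 8 next at 2.61. Clusters of 21 nt were fewer in callus, at 172 in EC and 245 in leaf. Its ratio of 0.702 (0.574 to 0.857) was close to that of 0.726 on the other 18 chromosomes, and it ranked the 8th lowest of the 19. Chromosome 6 thus stood at the low end of the chromosomes in the 24 nt class and near their middle in the 21 nt class. The 24 nt class made up most of the counts on which the chromosome was selected, and the 21 nt class few of them. The contrast between the classes is therefore a description.

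The remaining classes differed less between the tissues. There were 92 clusters of 20 nt in EC and 79 in leaf, a ratio of 1.16 (0.853 to 1.59). The 22 nt class had 99 clusters in EC and 85 in leaf, also a ratio of 1.16 (0.863 to 1.58). Both of these intervals include 1, whereas the same classes had ratios of 2.01 and 1.91 on the other 18 chromosomes. The 23 nt class numbered 415 in EC and 301 in leaf, with a ratio of 1.38 (1.19 to 1.60). Clusters without a DicerCall (N) numbered 1264 in EC and 1142 in leaf, with a ratio of 1.11 (1.02 to 1.2), against 1.49 on the other 18 chromosomes. In every class of chromosome 6 the ratio was below that of the other 18 chromosomes as a whole, and it was nearest to it for 21 nt.

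Since the classes moved unequally, the make-up of the chromosome differed between the tissues. Of the clusters on chromosome 6, 74.9% in EC and 61.7% in leaf were called 24 nt, while 2.11% in EC and 5.07% in leaf were called 21 nt. Class N took 15.5% in EC and 23.6% in leaf. There were 35.5 clusters of 24 nt for each cluster of 21 nt in EC and 12.2 in leaf, against 39.6 in EC and 8.72 in leaf on the other 18 chromosomes. The 24 nt share in EC was the lowest of the 19 chromosomes, where the others lay between 76.1 and 78.3%, and that in leaf was the 3rd highest. Its 21 nt share in leaf was the 2nd lowest after chromosome 16 with 3.94%.

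**Figure D2:**
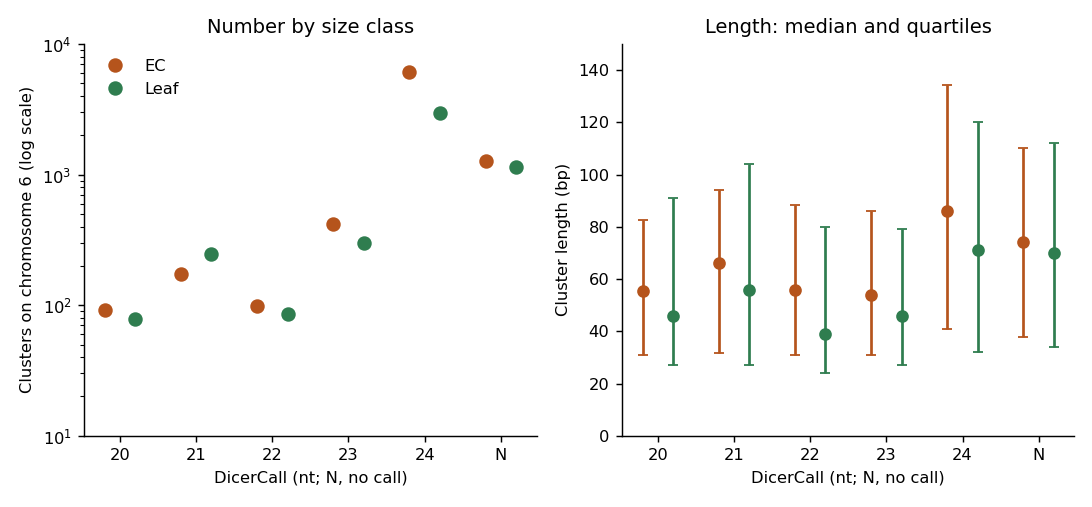
Left, number of clusters on chromosome 6 by DicerCall in EC and leaf on a log scale; right, cluster length in bp by DicerCall, where points are medians and bars run between the quartiles. EC lies above leaf in number in every class except 21 nt, which has 172 clusters in EC and 245 in leaf, and the median of the 24 nt class is 86 bp in EC and 71 bp in leaf.

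Clusters on chromosome 6 were longer in EC than in leaf. The median length was 80 bp in EC and 66 bp in leaf, and clusters of at most 30 bp made up 17.3% in EC and 24% in leaf. For EC this was the shortest median of the 19 chromosomes, the others lying between 84 and 93 bp, while the leaf median was within the 58 to 72 bp of the others. By class, the median was 86 bp in EC and 71 bp in leaf for 24 nt, 66 bp in EC and 56 bp in leaf for 21 nt, and 74 bp in EC and 70 bp in leaf for N. Some clusters were no longer than a single siRNA, since 442 EC clusters (7.24% of the 24 nt class) and 339 leaf clusters (11.4%) called 24 nt measured exactly 24 bp.

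Long clusters were rare. There were 28 clusters of at least 500 bp in EC and 19 in leaf, and the 0.344% in EC was the lowest share of the 19 chromosomes. EC clusters covered 794037 bp, 3.69% of the chromosome, and leaf clusters 430354 bp, 2%. The covered length in EC was thereby 1.85 times that in leaf, the lowest such ratio of the 19 chromosomes, with chromosome 18 next at 2.37. The chromosome was thus low in EC by covered length too. Covered length depends on the number of clusters, on which the chromosome was selected, so it is not separate support.

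Strand was given for clusters in which 1 strand prevailed. In EC 2148 clusters were on the plus strand and 2026 on the minus strand, and in leaf 1413 were on the plus strand and 1315 on the minus strand. No strand was given for 48.8% of the EC clusters and 43.5% of the leaf clusters, and the share in EC was the lowest of the 19 chromosomes, where the others lay between 51.0 and 54.7%. Reads from both strands are what processing of double-stranded precursors leaves. Among 24 nt clusters 50.8% in EC and 46.7% in leaf had no strand. Among those of 21 nt it was 47.1% in EC and 46.1% in leaf, and among N clusters 44.3% in EC and 37.8% in leaf.

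The profile along the chromosome was followed in windows of 1 Mb, with each cluster placed by its midpoint. The chromosome ended at the last EC cluster, 21506337 bp from its start, which gave 21 complete windows and a last one of 0.506 Mb. EC had between 248 and 644 clusters per complete window with a median of 350, and leaf between 114 and 310 with a median of 227. EC had fewer than 400 clusters in 14 windows (66.7%), against 38.3% of the 420 complete windows of the 19 chromosomes. Leaf had at least 200 in 17 windows (81.0%), against 49.3% of the 420. These counts form the ratio that selected the chromosome, so nothing further is read from the shares. EC was sparse over the first 8 Mb and dense between 9 and 14 Mb, and leaf was dense over the first 8 Mb and sparse between 9 and 12 Mb. Over the 21 windows the numbers of EC and leaf clusters had a Pearson's r of -0.42 and a Spearman's rho of -0.53. The windows share 2 libraries and 1 assembly, so this is a description, and r was -0.16 in windows of 0.5 Mb and -0.18 with neighbouring clusters within 500 bp merged. Between 9 and 14 Mb both profiles were higher at the far end than at the near end. On the other 18 chromosomes r ran between -0.58 and 0.19 with a median of -0.13.

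**Figure D3:**
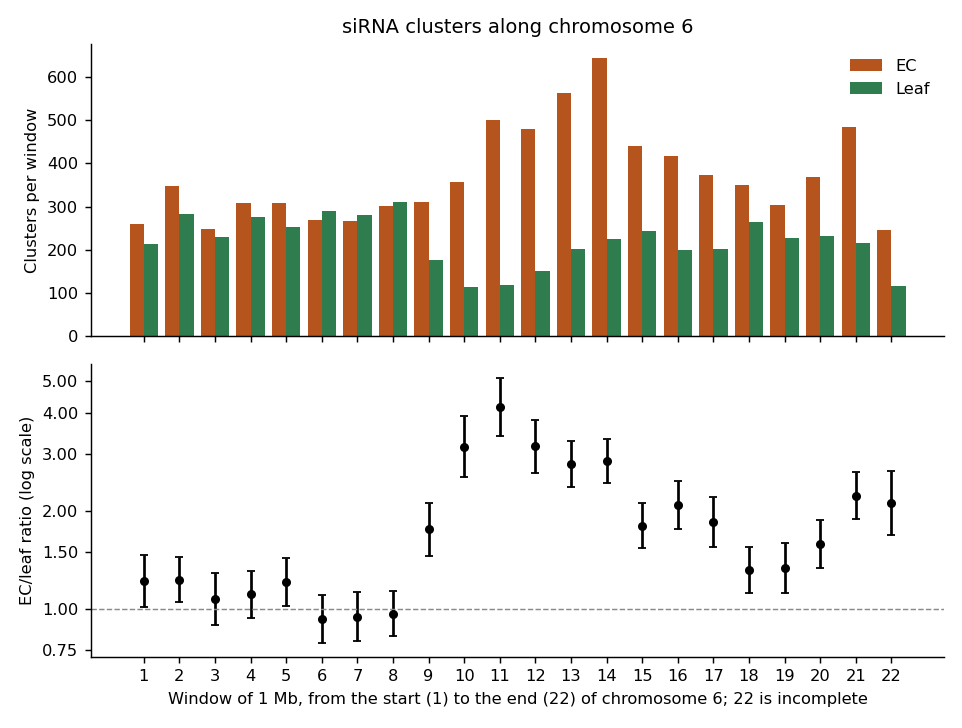
Clusters per 1 Mb window along chromosome 6 in EC and leaf (top) and the EC/leaf ratio on a log scale with 95% counting intervals (bottom). The horizontal axis is the order of the windows from the start of the chromosome, the last one incomplete. Ratios lie between 0.931 and 1.23 in the first 8 windows and reach 4.17 in the window of 10 to 11 Mb.

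The first 8 Mb held nearly as many clusters in leaf as in EC. There were 2310 clusters in EC and 2138 in leaf, a ratio of 1.08 (1.02 to 1.15), and the densities were 288.8 per Mb in EC and 267.3 per Mb in leaf. From the start, the 8 windows had 260, 348, 248, 308, 308, 270, 267 and 301 clusters in EC, against 213, 282, 231, 277, 254, 290, 281 and 310 in leaf. The last of these counts, 310 between 7 and 8 Mb, was the highest leaf count of the 21 windows. Ratios were thus between 0.931 and 1.23 throughout.

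In the 3 windows between 5 and 8 Mb leaf had more clusters than EC. The ratio was 0.931 (0.786 to 1.10) between 5 and 6 Mb, 0.95 (0.801 to 1.13) between 6 and 7 Mb and 0.971 (0.826 to 1.14) between 7 and 8 Mb. Each of these intervals includes 1, as does that of the 3 windows together, 0.951 (0.864 to 1.05). They cover the counting of clusters alone, so no verdict between the tissues is drawn from them. Of the 21 windows 3 (14.3%) had a ratio below 1, against 1.9% of the 420. A ratio below 1.5 was found in 10 windows (47.6%), against 21.7% of the 420. These windows were part of what chose the chromosome, and nothing further is read from their number. The interval lay wholly above 1 in 16 of the 21 windows and included 1 in the other 5. This was not counted over the 420, so nothing is read from it. The 8 windows formed an unbroken run below 1.5, and chromosome 8 had one of 9 windows.

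By class, EC had fewer clusters than leaf over the first 8 Mb for 21 nt and N, but not for 24 nt. The 21 nt class had 54 clusters in EC and 120 in leaf, a ratio of 0.450 (0.320 to 0.625), and EC had fewer than leaf in each of the 8 windows. In the chromosome's 10 windows with a ratio below 1.5, the median was 6 clusters of 21 nt in EC and 14 in leaf. Such windows on the other 18 chromosomes had medians of 6 in EC and 15 in leaf. Class N had 394 clusters in EC and 533 in leaf, a ratio of 0.739 (0.647 to 0.844), again with fewer in EC in each of the 8 windows. These were the 8 windows of the chromosome (38.1%) with fewer N clusters in EC, against 25% of the 420. The stretch was chosen for its low ratio, so nothing further is read from these window counts. The 24 nt class had 1694 clusters in EC and 1286 in leaf, a ratio of 1.32 (1.22 to 1.42), and EC stayed above leaf in each window, with ratios between 1.08 and 1.71. In each of these classes the ratio lay below that of the whole chromosome, which was 2.05 for 24 nt, 0.702 for 21 nt and 1.11 for N. Where leaf clusters outnumbered EC clusters in total, between 5 and 8 Mb, the 24 nt class alone still had 603 in EC and 540 in leaf. The surplus of leaf there lay in the other classes, among them N with 155 clusters in EC and 211 in leaf, and 21 nt with 18 in EC and 44 in leaf.

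The window of 8 to 9 Mb lay at the change between these stretches. It had 311 clusters in EC and 177 in leaf, a ratio of 1.76 (1.46 to 2.13), just above that of the whole chromosome. Past it, from 9 to 14 Mb, 2545 clusters in EC stood against 814 in leaf, a ratio of 3.13 (2.89 to 3.39). The densities were 509 per Mb in EC and 162.8 per Mb in leaf. The 5 windows had 358, 500, 480, 563 and 644 clusters in EC, against 114, 120, 152, 202 and 226 in leaf. The gap between the tissues thus came from both sides, with EC above its median window in every one of the 5 and leaf at or below its own.

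The highest ratios of the chromosome were 4.17 (3.41 to 5.13) between 10 and 11 Mb, 3.16 (2.63 to 3.82) between 11 and 12 Mb and 3.14 (2.54 to 3.91) between 9 and 10 Mb. These windows are named for their ratios, so no comparison of their intervals with those of other windows is drawn. A ratio of 2.5 or more was reached in 5 windows (23.8%), against 49.3% of the 420, and a ratio of 5 or more in 0, against 13.6% of the 420. The 24 nt ratio between 9 and 14 Mb was 4.01 (3.63 to 4.44) and reached 5.02 between 9 and 10 Mb, where EC had 276 and leaf 55 clusters of 24 nt. For 21 nt the same stretch had 47 clusters in EC and 44 in leaf, a ratio of 1.07 (0.693 to 1.65). Class N had 377 clusters in EC and 198 in leaf there, a ratio of 1.90 (1.60 to 2.27).

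Beyond 14 Mb the ratio came down and rose again towards the end. Between 14 and 17 Mb there were 1230 clusters in EC and 646 in leaf, a ratio of 1.90 (1.73 to 2.10). Between 17 and 19 Mb there were 653 in EC and 492 in leaf, a ratio of 1.33 (1.18 to 1.5), and in the 21 nt class 8 in EC and 21 in leaf. The ratio in the following windows was 1.59 between 19 and 20 Mb, 2.23 between 20 and 21 Mb and 2.11 in the incomplete last window, which held 245 clusters in EC and 116 in leaf. The chromosome therefore had a second stretch of low ratio, shorter than the first, before a rise over its last 1.5 Mb.

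Cut into 5 equal parts, chromosome 6 had ratios of 1.16, 1.08, 3, 2.23 and 1.62 from start to end, where the medians of the other 18 chromosomes were 1.53, 2.17, 4.03, 3.59 and 2.37. The shape was alike, with the highest ratio in the middle part, and each part lay lower. The second part stood out most, with the lowest ratio of the 19 chromosomes, the lowest EC density and the highest leaf density. The ranks of the parts use the counts whose ratio selected the chromosome, so they are a description. In the first part too the leaf density, 255.5 per Mb, was the highest of the 19. In the other 3 parts the ratio of chromosome 6 was the 4th or 5th lowest.

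EC clusters of 24 nt were most numerous between 13 and 14 Mb (489), between 12 and 13 Mb (418) and between 10 and 11 Mb (380), where leaf had 120, 121 and 77. Leaf clusters of 24 nt peaked between 7 and 8 Mb (214 in EC and 190 in leaf), between 6 and 7 Mb (206 in EC and 181 in leaf) and between 1 and 2 Mb (268 in EC and 170 in leaf). The 24 nt classes of the tissues thus had their peaks in different windows. In 0 of the 21 windows, as in 0% of the 420, did EC have fewer 24 nt clusters than leaf.

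The 21 nt clusters were thinly spread, with 2 to 14 per complete window in EC and 3 to 21 in leaf. EC had most between 16 and 17 Mb (14 in EC and 11 in leaf), between 13 and 14 Mb (13 in EC and 14 in leaf) and between 19 and 20 Mb (13 in EC and 14 in leaf). Leaf had most between 5 and 6 Mb (4 in EC and 21 in leaf), between 3 and 4 Mb (6 in EC and 20 in leaf) and in the first Mb (8 in EC and 15 in leaf). EC had fewer 21 nt clusters than leaf in 16 windows (76.2%), against 57.4% of the 420, and more in the other 5 (23.8%), against 38.1%. The share with fewer in EC was 57.1% with the windows shifted by 0.5 Mb, 58.1% in windows of 0.5 Mb and 57.1% without clusters of at most 30 bp, so nothing is read from the 76.2%. The interval of the 21 nt ratio lay wholly below 1 in each window between 2 and 4 Mb and between 5 and 6 Mb. It did so too between 17 and 18 Mb, where EC had 2 and leaf 14. It lay wholly above 1 between 12 and 13 Mb, where EC had 12 and leaf 3. No share of such windows was counted over the 420, and nothing is read from these small counts. Over the 21 windows r between EC and leaf was -0.31 for 21 nt clusters, but -0.11 once the 2 windows farthest from the median were left out.

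**Figure D4:**
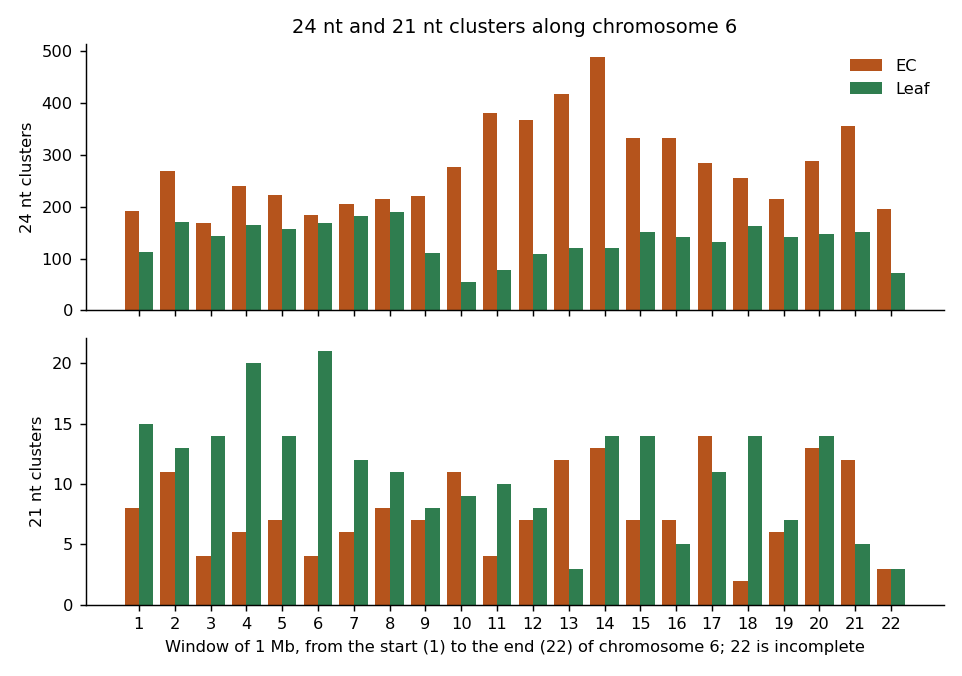
Number of 24 nt clusters (top) and of 21 nt clusters (bottom) per 1 Mb window of chromosome 6, with bars for EC and leaf. The horizontal axis is the order of the windows, the last one incomplete. EC lies above leaf in every window for 24 nt, and below it in each of the first 8 windows for 21 nt.

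Overlap between the tissues was counted where clusters shared at least 1 bp. On chromosome 6, 20.7% of EC clusters were overlapped by a leaf cluster, against 16.3% over the 19 chromosomes, and this was the highest of them. In the other direction 34.6% of leaf clusters were overlapped by an EC cluster, against 40.8% over the 19, which was the lowest together with that of chromosome 9, also 34.6%. Neither place in the order was kept under every setting: among clusters of at least 100 bp chromosome 6 was the 3rd highest for EC and the 2nd lowest for leaf. These shares move with how many clusters the other tissue has, and chromosome 6 had the densest leaf list and the sparsest EC list. The stretch common to both tissues was 105867 bp, 13.3% of the length covered in EC and 24.6% of that covered in leaf. Most of the covered length was therefore listed in 1 of the 2 tissues.

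Overlap also moved with class and with length. For 24 nt clusters it was 21.2% in EC (16.8% over the 19 chromosomes) and 38.8% in leaf (46%). For 21 nt clusters it was 23.3% in EC (21%) and 26.1% in leaf (24.7%), and for N clusters 21.4% in EC (16.1%) and 29.8% in leaf (35.4%). The 21 nt class was thus the one in which chromosome 6 lay nearest to the whole. Clusters of at most 30 bp were overlapped in 16.5% of cases in EC and 29.1% in leaf, and those over 500 bp in 46.4% in EC (13 of 28) and 78.9% in leaf (15 of 19). On the other 18 chromosomes these shares were 11.8% in EC and 32.3% in leaf for at most 30 bp, and 39.1% in EC and 78.7% in leaf over 500 bp. Longer clusters were thus overlapped more often on chromosome 6 as elsewhere.

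Along the chromosome the overlap of EC clusters was high where leaf clusters were dense. It was highest between 7 and 8 Mb with 36.2% and lowest between 9 and 10 Mb with 9.22%, while the overlap of leaf clusters lay between 27.0% (6 to 7 Mb) and 43.3% (10 to 11 Mb). Over the first 8 Mb 30.7% of EC clusters and 33.0% of leaf clusters were overlapped. Between 9 and 14 Mb it was 12.3% of EC clusters and 38.0% of leaf clusters. The common stretch amounted to 5.96 kb per Mb over the first 8 Mb and 3.83 kb per Mb between 9 and 14 Mb. It did not follow the EC/leaf ratio throughout, since it was 2.98 kb per Mb between 8 and 9 Mb, where the ratio was 1.76, and 5.10 kb per Mb from 19 Mb to the end, where the ratio was 1.94.

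**Figure D5:**
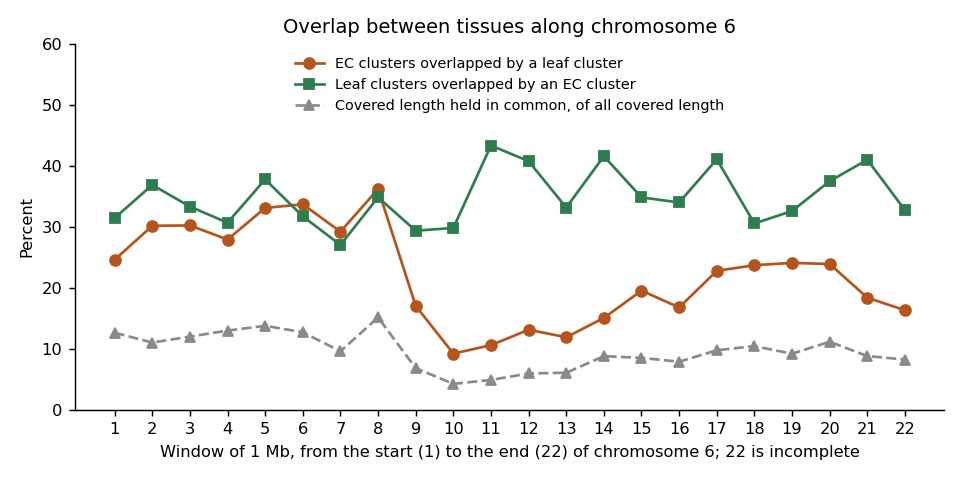
Percent of EC clusters overlapped by a leaf cluster (circles), percent of leaf clusters overlapped by an EC cluster (squares) and covered length common to both tissues as a percent of all covered length (triangles) per 1 Mb window of chromosome 6, in the order of the windows, the last one incomplete. The EC share is between 24.6 and 36.2% in the first 8 windows and 9.22% in the window of 9 to 10 Mb, where the common length is lowest at 4.26%.

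Where clusters overlapped, their size classes could be compared at the same place. Of the 1156 leaf clusters of 24 nt with a partner in EC, 83.7% (81.4 to 85.7%) had a 24 nt partner, against 86.6% on the other 18 chromosomes. Of the 1297 EC clusters of 24 nt with a partner, 75.9% had a leaf partner of 24 nt. Most partners of 24 nt clusters were thus of 24 nt, as were 74.9% of all EC clusters and 61.7% of all leaf clusters of the chromosome. Of 64 leaf clusters of 21 nt with a partner, 18 (28.1%) lay on an EC cluster of 21 nt, 25 (39.1%) on one of 24 nt and 16 on one of class N. On the other 18 chromosomes 29.0% lay on an EC cluster of 21 nt and 52.0% on one of 24 nt. Of all EC clusters of chromosome 6, 2.11% were of 21 nt. A 21 nt call was thus found more often among the partners of its leaf 21 nt clusters than among EC clusters at large. Among clusters of at least 100 bp the share of leaf 21 nt clusters with a 21 nt partner was 52.9% on chromosome 6. Of the EC clusters of that length, 38 of 3117 were of 21 nt. Of 40 EC clusters of 21 nt with a partner, 19 (47.5%) lay on a leaf cluster of 21 nt and 11 on one of 24 nt.

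Partners shared their strand where both had one. Of 1671 leaf clusters with a partner, 499 had a strand in both tissues, and 459 of these (92.0%, 89.2 to 94.2%) were on the same strand, against 90.1% on the other 18 chromosomes. EC partners were mostly the longer ones. In the 967 pairs of 24 nt in both tissues the median was 107 bp in EC and 85 bp in leaf, and the EC cluster was longer in 56.4% of them, against 62.7% on the other 18 chromosomes. In the 18 pairs of 21 nt it was the reverse, with 144 bp in EC and 249 bp in leaf, and the leaf cluster was longer in 12.

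The longest 21 nt clusters of the chromosome lay at the same place in both tissues. In EC a cluster of 1207 bp ran along 13594017 to 13595223, and it was wholly covered by a leaf cluster of 21 nt that ran along 13593685 to 13595223 (1539 bp). These were also the longest clusters of any class on chromosome 6 in the EC list and in the leaf list. Around them, between 13591818 and 13595223, each tissue had 4 clusters of 21 nt. A second common place lay at 2804817 to 2805456 in EC (640 bp), wholly within the leaf cluster at 2804815 to 2805781 (967 bp, minus strand). The next was at 258898 to 259274 in EC and 258939 to 259318 in leaf, with 336 bp in common. The EC cluster of 21 nt next in length, at 779488 to 779938 (451 bp), was covered for 72.7% by a leaf cluster of 21 nt. The 3 longest EC clusters of the class thus each lay on a leaf cluster of the same class.

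Other 21 nt loci were listed in leaf without a counterpart. The second longest in leaf, at 13639361 to 13640799 (1439 bp), had no EC cluster on it, and neither had any part of the 3 leaf clusters of 21 nt between 13639361 and 13641725. The largest group had 9 leaf clusters of 21 nt within 2.78 kb, between 17411768 and 17414547, and no EC cluster of any class. A group of 7 leaf clusters of 21 nt between 3880974 and 3887198 had 1 EC cluster in it, of 24 nt. In EC the largest group was of 5 clusters of 21 nt, between 16754103 and 16765779, with 3 leaf clusters of 21 nt in it. The EC groups of 4 each held 4 leaf clusters of 21 nt. Those of 3, at 6509307 to 6512331 and at 9279968 to 9286895, held 0. With clusters less than 10 kb apart put together, a gap chosen after the data had been seen, 15 groups of 3 or more were found in leaf and 5 in EC. Leaf also had more clusters of 21 nt to group (245, against 172 in EC). Groups were not counted on the other chromosomes, so nothing is read from their numbers.

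At some places the call changed between the tissues. With each leaf cluster paired with the EC cluster it shared most with, 25 pairs were of 24 nt in EC and 21 nt in leaf. Of these, the one with most in common (149 bp) lay at 15049396 to 15049605 in EC and 15049451 to 15049599 in leaf. The next were at 13022944 to 13023089 in EC and 13022951 to 13023083 in leaf (133 bp), and at 187939 to 188209 in EC and 188094 to 188203 in leaf (110 bp). The opposite change, 21 nt in EC and 24 nt in leaf, was found in 10 pairs. The first was at 10504697 to 10504816 in EC and 10504669 to 10504879 in leaf (120 bp). The 25 pairs were 39.1% of the leaf 21 nt clusters with a partner, against 52.0% on the other 18 chromosomes. The 10 pairs were 0.865% of the leaf 24 nt clusters with a partner, against 0.919%. These pairs were short, and without reads per cluster it was unknown how firmly each call was made.

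Among clusters of 24 nt the longest in EC were at 12964214 to 12965084 (871 bp, 33.5% of it covered by leaf clusters), 20019680 to 20020475 (796 bp) and 16240506 to 16241252 (747 bp), the other two without a leaf cluster. In leaf they were at 535337 to 536196 (860 bp, 37.1% of it covered by EC clusters), 11440361 to 11441070 (710 bp, without an EC cluster) and 4238721 to 4239418 (698 bp, 49.3%). The longest 24 nt clusters therefore lay at different places in the tissues. The pair of 24 nt clusters with most in common was at 7904411 to 7904926 in EC and 7904333 to 7904821 in leaf (411 bp), in the window with most leaf clusters. Others lay at 5229093 to 5229472 in EC and 5228992 to 5229664 in leaf (380 bp), and at 2702105 to 2702616 in EC and 2701885 to 2702470 in leaf (366 bp). These 3 pairs were all in the first 8 Mb.

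For class N the longest cluster in EC was at 850546 to 851266 (721 bp, plus strand, 49.9% covered by leaf). A place near 15.61 Mb was long in both tissues, with an EC cluster at 15611619 to 15612039 (421 bp) and the longest leaf cluster of the class at 15611514 to 15612019 (506 bp), both on the plus strand. The remaining classes had short clusters only. The longest of 20, 22 and 23 nt measured 148, 286 and 282 bp in EC and 259, 204 and 305 bp in leaf.

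The 3 longest stretches without clusters lay in different places in the tissues, and whether shorter ones coincided was not counted. The longest without an EC cluster was 78.0 kb, at 16139581 to 16217583, and held 2 leaf clusters. The next, of 61.5 kb at 4627762 to 4689285 and of 50.6 kb at 6532632 to 6583205, held 1 leaf cluster each. The 3 longest stretches without a leaf cluster were all between 9.6 and 10.1 Mb. That of 118.2 kb, at 9945629 to 10063854, held 14 EC clusters, 9 of them of 24 nt. Those of 86.1 kb at 9859494 to 9945569 and of 77.7 kb at 9608526 to 9686189 held 12 and 15 EC clusters. The median distance between neighbouring clusters was 768 bp in EC and 1591 bp in leaf, against 599 bp in EC and 1944 bp in leaf on the other 18 chromosomes.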

How the data were processed

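The authors sequenced small RNA, purified from 50 mg of each tissue, of 1 EC and 1 leaf library. Per the methods they filtered reads by size (UEA small RNA Workbench v4.5), removed tRNA and rRNA reads (PatMaN v1.2.2) and miRNA reads, and mapped the rest to PN40024 12X with ShortStack v3.8.5, which places multi-mapping reads by nearby unique reads and calls clusters. The minimum depth and the padding of cluster calling were not given in the sources used. The deposited values were start and end positions with strand and DicerCall. The score column was empty, so the reads behind a cluster are unknown and weak clusters count like strong ones.

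All chromosome 6 clusters were counted by class, length, strand and overlap (at least 1 bp, partner by longest overlap), and in windows of 1 Mb by midpoint, with Python 3.11.15, pandas 2.3.3 and scipy 1.17.1. The chromosome length was the largest cluster end. Counting was tested on simulated lists. No test between tissues was made. Named were the 3 windows of highest and of lowest ratio, those with most 21 and 24 nt clusters, the 3 longest clusters of 21 nt, 24 nt and N, the longest of the other classes, miRNA loci, and the 3 longest pairs and gaps. Members and lists were chosen with earlier results of these data known. The ratio limits of 1, 1.5 and 2.5 and the stretches of windows were chosen after the profile had been seen. Sequences, genes and repeats were not analysed here for lack of a matching genome build.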

Additional observations from a re-analysis of the deposited data

How the results depend on the processing

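No paired analysis was possible because EC and leaf were 1 library each, so that no replicate could be left out either. Of 86 alternative values 38 stayed within the counting interval or, where there was none, within a set limit of the value given, 48 moved and 0 reversed. For shares of windows this limit was wide. The 57.1% of windows with fewer 21 nt clusters in EC, found with the windows shifted, was counted as staying with 76.2%. Keeping clusters of at least 100 bp, leaving out those of at most 30 bp, merging clusters within 500 bp and leaving out class N gave EC/leaf ratios of 1.998, 1.84, 1.42 and 1.87. In stretches chosen after seeing the data, the ratio was 1.85 without 5 to 8 Mb, 2.17 without 0 to 8 Mb and 1.39 without 9 to 14 Mb. The 24 nt ratio was 2.41 for at least 100 bp, 2.23 without at most 30 bp and 1.71 merged, and the 21 nt ratio 0.559 for at least 100 bp. The 24 nt share was 82.1% in EC and 68.1% in leaf for at least 100 bp, 67.5% in EC and 58.2% in leaf merged, and 88.7% in EC and 80.8% in leaf without N. Median lengths were 144 bp in EC and 142 bp in leaf for at least 100 bp, 94 bp in EC and 88 bp in leaf without at most 30 bp, and 114 bp in EC and 90 bp in leaf merged. The ratio of covered length was 2.10 merged and 2.05 without N. The share with no strand was 65.4% in EC and 61.5% in leaf for at least 100 bp, 55.9% in EC and 53.2% in leaf without at most 30 bp, and 45.3% in leaf without N. Merged clusters have no strand and gave no value. Overlap was 12.6% in EC and 24.3% in leaf if 50% of the cluster had to be covered, 11.5% in EC and 19.5% in leaf for the same strand entry, 13.3% in EC and 26.4% in leaf for at least 100 bp, 18.0% in EC and 32.6% in leaf without at most 30 bp, 28.4% in EC and 41.9% in leaf merged, and 17.4% in EC and 32.0% in leaf without N. Leaf 21 nt clusters with a 21 nt partner made up 52.9% for at least 100 bp, and leaf 24 nt clusters with a 24 nt partner 86.1% at 50% overlap, 87.7% for at least 100 bp and 93.8% without N. The correlation of windows was -0.16 in windows of 0.5 Mb and -0.18 merged. The settings remove or join clusters, change the windows or ask more of an overlap, and the reasons for the shifts were not tested. Among the 19 chromosomes the ratio and the EC density of chromosome 6 stayed the lowest under all 5 cluster settings, and the leaf density the highest except for at least 100 bp, where it was the 3rd highest. In EC the overlap was the highest of the 19, except that it was the 3rd highest for at least 100 bp and the 2nd highest without at most 30 bp and merged. In leaf it was the lowest, except that it was the 2nd lowest for at least 100 bp and merged. The reads behind each cluster are unknown and the study lists more mapped reads for EC than for leaf, which limits every comparison between the tissues.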

Other observations

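ShortStack marked 1 cluster of chromosome 6 as a miRNA locus, in leaf, at 16503554 to 16503621 (68 bp, 21 nt, minus strand). In EC 0 clusters were marked, and the same place lay wholly within an EC cluster of class N without the mark. The closest neighbouring clusters of a tissue were 71 bp apart in EC and 69 bp in leaf. Gaps over 20 kb between clusters numbered 119 in EC and 171 in leaf.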
